A study of Homo sapiens with 47 samples.

Results

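PAEP, the gene of the secreted glycoprotein glycodelin, was read in 26 of 37 circulating tumor cells (CTC) of the triple-negative breast cancer line MDA-MB-231-LM2 (LM2) and in none of 6 LM2 cells grown in culture. The 26 CTCs with a PAEP value above 0, called PAEP-detected here, were compared with the 11 CTCs with a PAEP value of 0, called PAEP-negative. The members were chosen by the PAEP value itself, so PAEP levels are given as a description without a test, and all tests concern the other genes and the libraries. LM2 is an established human line selected for metastasis to the lung. The cells carried GFP and were injected into the mammary fat pad of young NSG mice, which lack T, B and NK cells, and CTCs were captured by size from the whole blood, stained for CD45 as a negative marker and picked singly by GFP. From every single cell, 1 library was made by SMARTseq2, a full-length cDNA method without molecular identifiers, and the control was LM2 cells from culture processed by the same protocol. No group received a treatment, and all libraries carry the same batch label. The whole series holds 47 labeled libraries, of which 43 have values.

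Glycodelin belongs to the lipocalins, small secreted proteins that fold into a barrel and carry lipophilic molecules. It is best known as a major product of the secretory endometrium and decidua, where it is induced by progesterone and acts on immune cells and sperm, and its sugar chains set which of these activities a given form has. Several lipocalin genes lie beside PAEP on chromosome 9. Breast epithelium and several carcinomas can also make glycodelin.

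PAEP (ENSG00000122133) is a protein-coding gene on the plus strand of chromosome 9, from 135561756 to 135566955 in GRCh38. Values are reads per gene scaled by a size factor for each cell, called normalized values here. In mouse 5541, 1 of 2 CTCs had PAEP, at 10048. In mouse 5542, 3 of 4 CTCs had it, at 59.4, 1602 and 1624. In mouse 5545, 4 of 10 CTCs had it, at 274, 299, 1478 and 1545. In mouse 5546, 14 of 17 CTCs had PAEP, between 16.7 and 11010. In mouse 5549, 4 of 4 CTCs had it, at 39.0, 79.9, 3244 and 3669, so this mouse entered no comparison within mice. Its 4 CTCs are among the 26 in detection counts, medians, means and ranges taken over all CTCs.

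The share of PAEP-detected CTCs was 70.3% (exact 95% binomial interval 53.0% to 84.1%), and PAEP was read in 0 of 6 cultured cells, which allows a share of up to 50% (3 of 6, as for every share of 0 below). These limits cover counting error only, since CTCs of 1 mouse are not independent and amplified reads are not independent molecules. The names of the libraries of mouse 5546 carry the letter c or s, which no source used here explains. All 9 libraries with the letter c were PAEP-detected, and 5 of 8 with the letter s were.

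**Figure D1:**
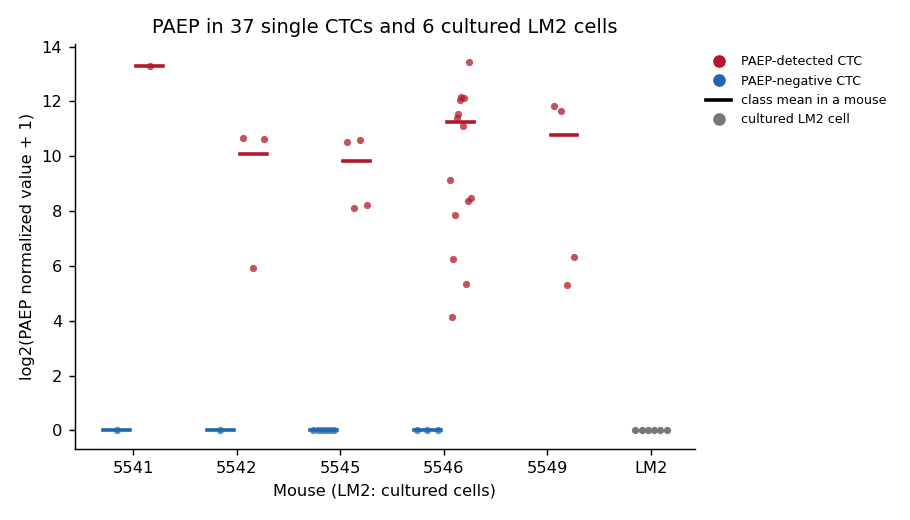
PAEP as log2(normalized value + 1) for each CTC by mouse and for the 6 cultured LM2 cells (grey), with PAEP-detected CTCs in red, PAEP-negative CTCs in blue and bars at the class mean of a mouse. No CTC lies between 0 and the lowest detected value of 16.7, and all 6 cultured cells are at 0.

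The classes were set apart by a gap. The lowest PAEP-detected CTC had 32 PAEP reads, and the next value above it was 39.0, while the 11 PAEP-negative CTCs had 0 reads, where 3 reads would have been worth a value of 1.38 to 3.31. Requiring a value of at least 8 or at least 2 reads left the same 26 CTCs. At the depth of the shallowest CTC, 469614 reads on genes, the lowest PAEP-detected CTC would be expected to hold 11.95 PAEP reads. Within the class, PAEP took between 0.00254% and 1.29% of the reads on genes, with a median of 0.187%. It ranked 5th among all genes in the PAEP-detected CTC of mouse 5541 and 4284th in the lowest CTC of mouse 5546.

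Depth, gene number and mitochondrial share were compared first, as measures of the library that could set whether a gene is read. PAEP-detected CTCs had 469614 to 2041333 reads on genes and a median of 7626 genes (range 4736 to 11009), and PAEP-negative CTCs had 644520 to 1850860 reads and a median of 6880 genes (range 2227 to 9602). The difference in gene number was not the same in the 4 mice with both classes. In mouse 5541, the PAEP-detected CTC had 8007 genes and the PAEP-negative CTC 6412. In mouse 5542, the mean of the PAEP-detected CTCs was 6837 genes, below the 7237 of the PAEP-negative CTC.

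In mouse 5545, the class means were 7262 and 6861 genes, and the ranges overlapped. In mouse 5546, they were 8174 and 5278 genes. Within the letter s of that mouse, which holds all of its PAEP-negative CTCs, the means were 6063 and 5278 genes. Over the 4 mice, PAEP-detected CTCs had 1123 ± 1438 (SD, n = 4) more genes, which did not exceed the spread between mice (exact sign-flip test, two-sided, p = 0.25). With 4 mice, that test cannot give a p below 0.125.

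Reads on genes differed by 99340 ± 310295 (SD, n = 4) in favor of the PAEP-detected class (exact sign-flip test, two-sided, p = 0.75). Without mouse 5546 the mean difference was -39589 reads, so its sign rested on that mouse. The mitochondrial share of reads was lower by 2.85 ± 4.25 percentage points (SD, n = 4; exact sign-flip test, two-sided, p = 0.375). Mouse 5546 carried most of this, with a mean share of 9.13% in PAEP-detected CTCs and 17.9% in PAEP-negative CTCs. Its 3 PAEP-negative CTCs were at 7.15%, 22.7% and 23.9%, and 1 of its PAEP-detected CTCs was at 21.5%, so the ranges overlapped. Without mouse 5546 the mean difference was -0.877 percentage points. Of the 4 CTCs with under 5000 genes, 3 were PAEP-negative.

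**Figure D2:**
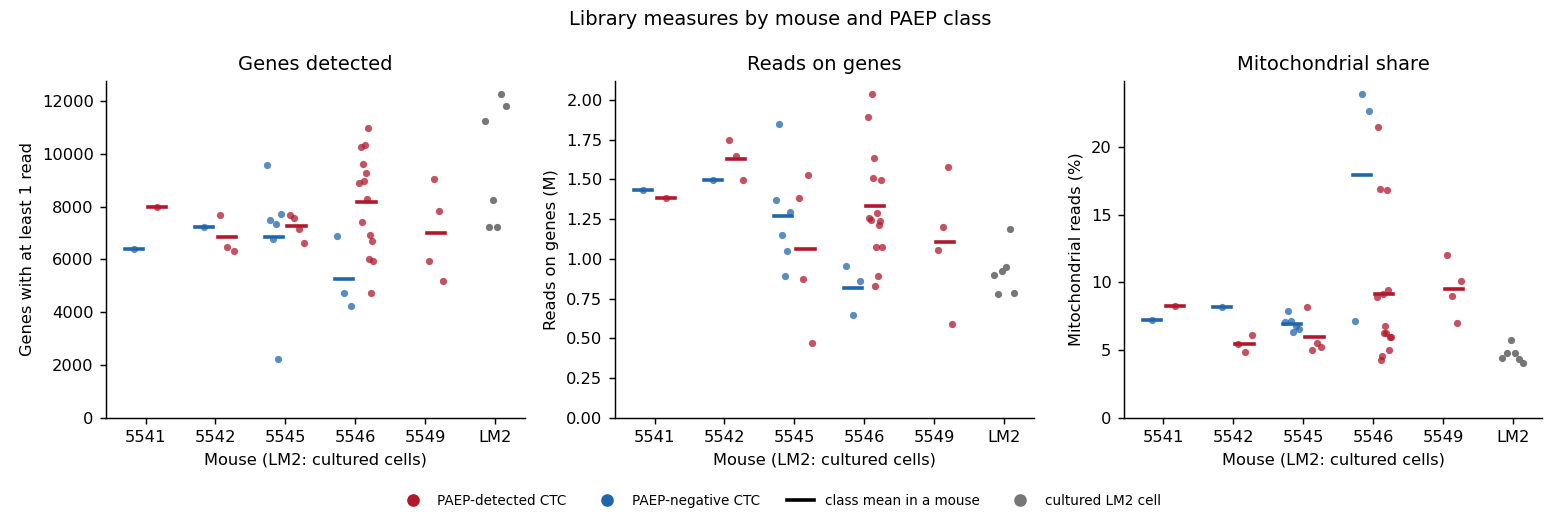
Genes with at least 1 read, reads on genes (M) and mitochondrial reads in percent for each library, by mouse and PAEP class, with cultured LM2 cells in grey and bars at class means. The classes overlap in mouse 5545 in all 3 measures, and the PAEP-negative CTCs of mouse 5546 have a mean of 5278 genes against 8174.

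All other genes were then compared between the classes within mice. A gene was tested when its mean over the CTCs was at least 8 and it was detected in at least 30% of them, which 6869 genes other than PAEP passed. For each mouse with both classes, the difference of log2(class mean + 1), PAEP-detected minus PAEP-negative, was taken, and limma tested these 4 paired differences. No gene passed an adjusted p of 0.05 (0% higher, 0% lower; smallest adjusted p = 0.707 in limma). At an unadjusted p under 0.05, 438 genes were higher (6.38%) and 14 lower (0.204%). On reads summed per mouse and class, edgeR called 0 genes, with 103 higher and 15 lower at an unadjusted p under 0.05, and DESeq2 called 35 higher and 2 lower. Of these 37 calls, none passed in edgeR. The test rests on 1 PAEP-negative CTC each in mice 5541 and 5542, so each difference in those mice is the difference from a single cell.

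The whole distribution stood off 0. The median difference over the 6869 genes was 0.64 on the log2 scale, and 73.2% of the genes were above 0. The median was 0 in mouse 5541, 0.80 in mouse 5542, -0.04 in mouse 5545 and 1.25 in mouse 5546. The PAEP-detected class held more CTCs than the other in mice 5542 and 5546, as many in mouse 5541 and fewer in mouse 5545, and the part of these numbers in the median was not tested. With the mean of log2 values in place of the log2 of the mean, it was 0.54, and with each CTC a unit and the log2 number of genes detected as a covariate it was 0.14. Differences below are therefore read against 0.64. Many of them set a class mean against 0 in 1 mouse or more, so their size depends on the 1 that was added, and with 0.1 added the median over genes was 0.90. Taken apart in each class, the median detection share over tested genes was 80.8% in PAEP-detected and 63.6% in PAEP-negative CTCs. The median difference in detection share per gene was 9.44 percentage points.

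The same sign in all 4 mice was seen for 775 genes on the higher side (11.3%) and 108 on the lower side (1.57%). A stricter rule of size, at least 1 on the log2 scale in each of the 4 mice, was met by 142 genes on the higher side (2.07%) and 7 on the lower side (0.102%). Since the mice with 1 PAEP-negative CTC enter with equal weight, these counts describe these libraries and are no test. Single mice weighed heavily on single genes. Of the 105 named genes tested, the difference shrank by over 1.5 times or changed sign in 39 without mouse 5541, in 23 without mouse 5542, in 12 without mouse 5545 and in 20 without mouse 5546.

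DDIT4 had the second largest difference among genes of the same sign in all 4 mice. It encodes REDD1, an inhibitor of the growth kinase complex mTORC1 that is induced by hypoxia, glucocorticoids and starvation. DDIT4 was detected in 25 of 26 PAEP-detected CTCs (96.2%, exact 95% interval 80.4% to 99.9%) and in 6 of 11 PAEP-negative CTCs (54.5%, 23.4% to 83.3%). In mouse 5541, DDIT4 was at 6.19 in the PAEP-detected CTC and at 0 in the other. In mouse 5542, it was at 86.0, 116 and 1960 against 0. In mouse 5545, it ranged from 2.10 to 984 with a median of 442 in 4 PAEP-detected CTCs, and from 0 to 104 with a median of 14.7 in 6 PAEP-negative CTCs. In mouse 5546, 14 PAEP-detected CTCs ranged from 0.700 to 2151 with a median of 377, while the 3 PAEP-negative CTCs were at 0, 3.82 and 7.01.

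Only in mouse 5545, where the lowest PAEP-detected CTC lay among the PAEP-negative ones, and in mouse 5546, where 1 PAEP-detected CTC lay below 2 PAEP-negative ones, did the classes overlap for DDIT4. The mean difference was 5.77 ± 1.17 (log2 of class means + 1, SE, n = 4 mice; limma adjusted p = 0.707), higher in 4 of 4 mice. It was 5.04 with each CTC a unit and genes detected as a covariate (limma adjusted p = 0.185), and between 4.52 and 7.47 over all alternatives. Without mouse 5541, DDIT4 was the only call of the limma fit, at 6.74 and an adjusted p of 0.0261. The cultured cells, which had no PAEP, held DDIT4 at 13.8 to 1022 with a median of 441, against 178 in PAEP-detected and 3.82 in PAEP-negative CTCs.

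CXCL8, the neutrophil-attracting chemokine IL-8, had the largest difference of the rule, 6.67 ± 1.39 (log2 of class means + 1, SE, n = 4; limma adjusted p = 0.707). Its detection was sparse, in 11 of 26 PAEP-detected CTCs and 2 of 11 PAEP-negative CTCs. In mouse 5541, it was at 111 against 0, and in mouse 5542, 1 of 3 PAEP-detected CTCs held 10735 while the others were at 0. In mouse 5545, the highest value was 486 in the PAEP-detected class and 8.85 in the other. In mouse 5546, 5 of 14 PAEP-detected CTCs had it, up to 47.3, and 0 of 3 PAEP-negative CTCs. The difference was 3.71 when each gene's highest CTC was left out, and 2.56 with each CTC a unit.

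STC1, a secreted glycoprotein hormone of hypoxia and of decidual cells, rested on a single library. The PAEP-detected CTC of mouse 5541 held 16381 against 0, a difference of 14.00 on the log2 scale, while mice 5542 and 5545 gave 0.78 and 1.00 and mouse 5546 gave 3.60. The mean was 4.84 ± 1.55 (SE, n = 4), and 1.79 without mouse 5541. It was -0.78 with each CTC a unit and genes detected as a covariate, and the median STC1 value was 4.41 in PAEP-detected and 34.2 in PAEP-negative CTCs.

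The other genes of the higher side had various intracellular roles. SLC35F2, a solute carrier of the plasma membrane, was at 312 against 1.21 in mouse 5541 and at a mean of 202 against 12.9 in mouse 5542. In mouse 5545, its class means were 110 and 42.3, and in mouse 5546 they were 112 and 0, which gave a mean difference of 4.80 ± 1.09 (log2 of class means + 1, SE, n = 4). PIGC, which takes part in the first step of GPI anchor synthesis, was detected in 20 of 26 PAEP-detected and 4 of 11 PAEP-negative CTCs, with a difference of 4.88 ± 1.23. All 4 of those PAEP-negative CTCs came from mouse 5545.

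MRTO4, a factor of 60S ribosome assembly, differed by 4.74 and PLK3, a stress-activated polo-like kinase, by 4.63. KLHL21, a substrate adaptor of a CUL3 ubiquitin ligase, differed by 4.24, and DCAF5, a substrate receptor of CUL4 ligases, by 4.18. PXMP4, a peroxisomal membrane protein, was also among the 10. Mouse 5545, the mouse with the most PAEP-negative CTCs, gave the smallest of the 4 differences for SLC35F2, PIGC, MRTO4, PLK3, KLHL21, PXMP4 and DCAF5. All 7 had a limma adjusted p of 0.707 and were called by DESeq2 on summed reads, where edgeR did not call them.

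On the lower side, PRKAB1, the beta 1 subunit of the energy sensor AMPK, had the largest difference. It was at 0 in all 4 PAEP-detected CTCs of mice 5541 and 5542, against 89.4 and 24.4 in the PAEP-negative CTCs. In mouse 5545, 4 PAEP-detected CTCs ranged from 0 to 29.7 and 6 PAEP-negative CTCs from 0 to 69.1. In mouse 5546, the 14 PAEP-detected CTCs had a median of 23.1 and a highest value of 105, and the PAEP-negative CTCs were at 23.9, 263 and 320. The mean difference was -3.78 ± 1.19 (log2 of class means + 1, SE, n = 4; limma adjusted p = 0.707), lower in 4 of 4 mice. It was -3.70 with genes detected as a covariate.

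MIB1, a ubiquitin ligase that activates Notch ligands, differed by -2.98, and FYCO1, an adaptor that moves autophagosomes, by -2.79. ATOSB differed by -2.64, UFSP2, a protease of the ubiquitin-like modifier UFM1, by -2.63, and POP5, a subunit of RNase P, by -2.52. FABP5, a fatty acid-binding protein, differed by -2.47, but by -8.87 in mouse 5541 and by less than 1 in each of the other mice. Without mouse 5541, the difference was -0.34 for FABP5, -0.68 for UFSP2, -1.28 for POP5 and -1.68 for FYCO1. ARID4A, a chromatin factor that binds the retinoblastoma protein, differed by -2.45, the kinase gene UHMK1 by -2.41 and WDR11 by -2.39. Without mouse 5541, ARID4A was at -1.60 and UHMK1 at -1.28. WDR11 was the most even of the 10, with -1.77 as the difference nearest to 0. That difference, in mouse 5541, set 0 in 1 CTC against 2.42 in 1 PAEP-negative CTC, where 3 reads were worth 1.81, so it lay near the floor.

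**Figure D3:**
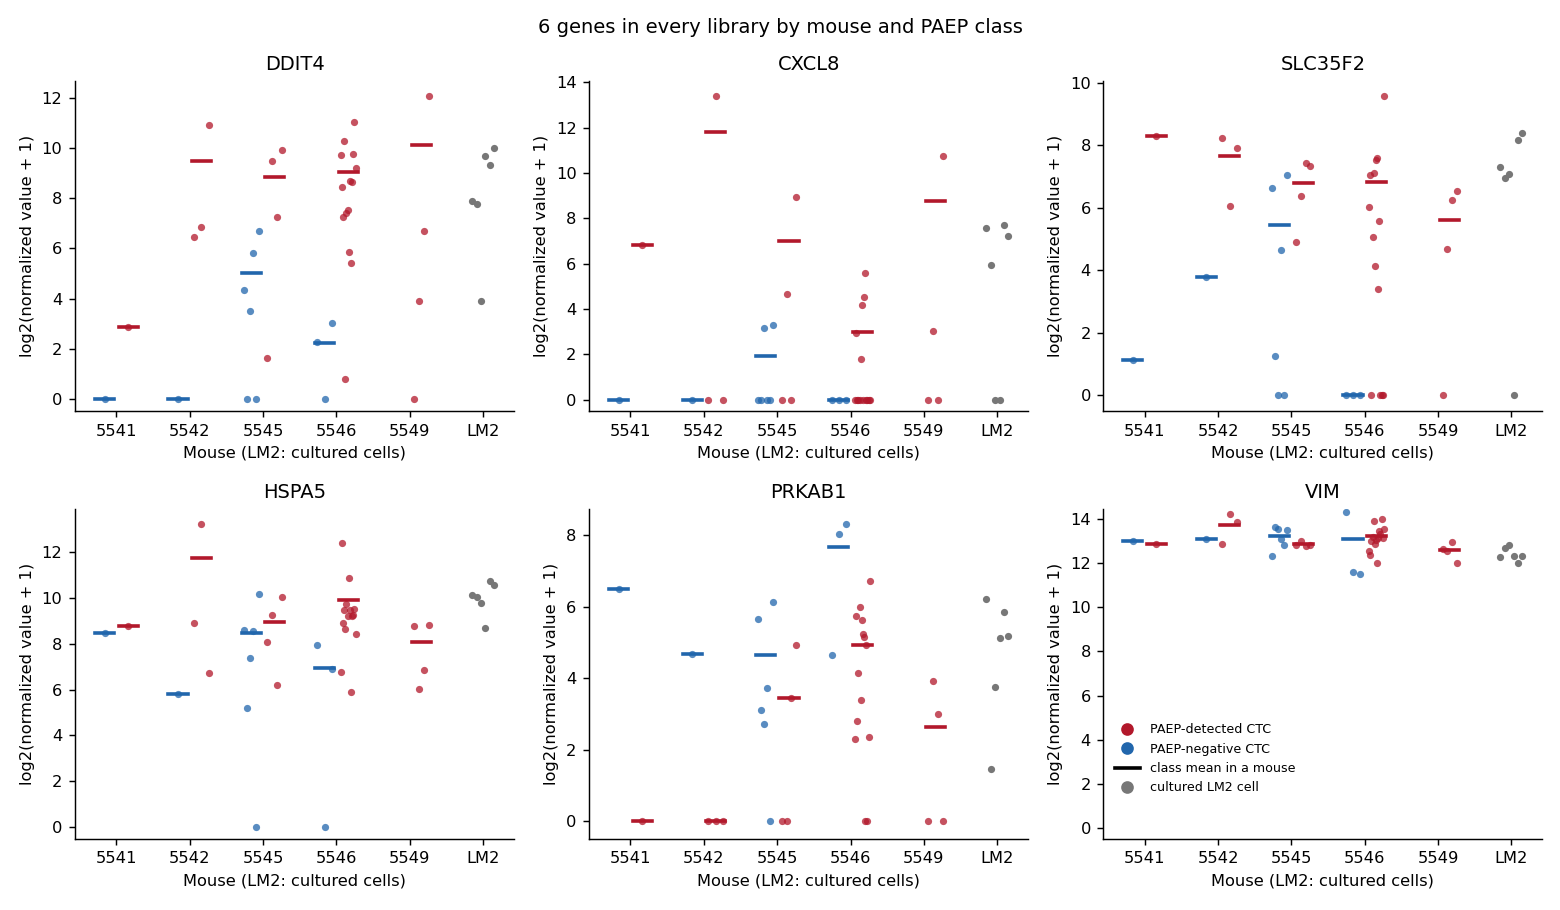
log2(normalized value + 1) of DDIT4, CXCL8, SLC35F2, HSPA5, PRKAB1 and VIM in every CTC by mouse and PAEP class and in cultured LM2 cells (grey), with bars at the log2 of the class mean + 1. DDIT4 is at 0 in the PAEP-negative CTCs of mice 5541 and 5542, PRKAB1 is at 0 in all 4 PAEP-detected CTCs of those mice, and VIM is even across classes.

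**Figure D4:**
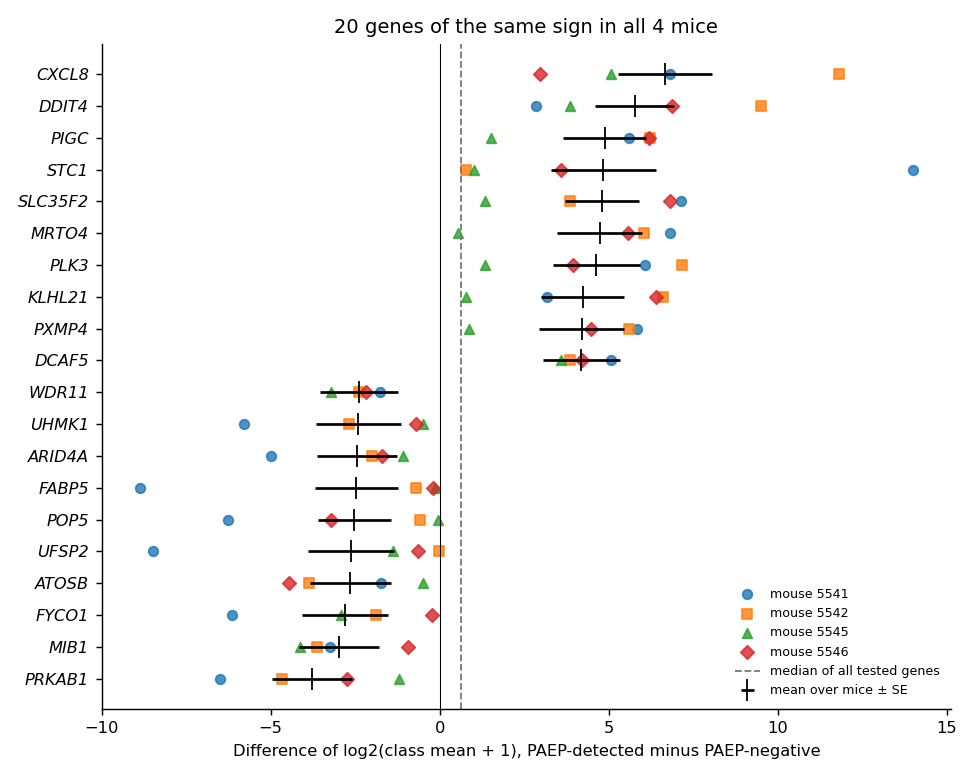
Difference of log2(class mean + 1), PAEP-detected minus PAEP-negative, in each of 4 mice (symbols) and as mean ± SE (black) for the 10 largest differences on each side among genes of the same sign in all 4 mice. The dashed line is the median of all tested genes at 0.64, and STC1 shows its 14.00 in mouse 5541 alone.

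Detection alone was then compared, without a test. A share of CTCs at least 50 percentage points higher in the PAEP-detected class was seen for 26 genes (0.379%), and 0 genes (0%) were as far on the lower side. CAMSAP2, which binds the minus ends of microtubules, was detected in 18 of 26 PAEP-detected CTCs and in 0 of 11 PAEP-negative CTCs, which allows a share of up to 27.3%. C2orf68 and the deubiquitinase gene USP33 were each detected in 22 of 26 and 2 of 11 CTCs. HSD3B7, an enzyme of bile acid synthesis, and CCNB1IP1, a ubiquitin ligase of cyclin B, were each detected in 19 of 26 and 1 of 11. In the other direction, TP53I13 was detected in 14 of 26 and 10 of 11 CTCs, and NLE1 in 7 of 26 and 7 of 11. CLU was detected in 12 of 26 and 9 of 11, ZNF480 in 12 of 26 and 9 of 11, and GMPPA in 15 of 26 and 10 of 11. Of the 10 genes named above on the lower side, some had a larger detection share in PAEP-detected CTCs. These were MIB1 (65.4% against 54.5%), ATOSB (61.5% against 54.5%), FYCO1 (50% against 45.5%) and WDR11 (65.4% against 63.6%). The rest of the 10 had a smaller share. The number of genes per CTC was higher on average in the PAEP-detected class of mice 5541, 5545 and 5546, and its part in these shares was not tested.

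The genes around PAEP were examined for reads in the same CTCs. Within 500 kb, 15 other genes had a row in the table and 4 passed the filter, 2 on each side of 0. The 4 were MRPS2 at 0.06, CAMSAP1 at -0.06, UBAC1 at -0.35 and NACC2 at 0.85 on the log2 scale. The lipocalin genes nearest to PAEP were too low to pass the filter but were read in PAEP-detected CTCs alone. So were OLFM1, LINC01502 and LCN9, each in 1 CTC, and PPP1R26-AS1, in 4. PPP1R26-AS1 was also read in 2 of the 6 cultured cells, which had no PAEP. The rest of those below the filter were read in both classes. The share of all genes that are as sparse and read in that class alone was not counted.

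OBP2A, an odorant-binding lipocalin whose gene ends 11.8 kb before PAEP (chromosome 9, 135546126 to 135549969, GRCh38), was read in 9 of 26 PAEP-detected CTCs (34.6%, exact 95% interval 17.2% to 55.7%). It was read in 0 of 11 PAEP-negative CTCs, which allows a share of up to 27.3%, and in 0 of 6 cultured cells. Most of its reads came from 2 libraries of mouse 5546, with 203 and 75 reads, and the other 7 CTCs held 1 to 14. The 9 CTCs had PAEP values of 274 to 11010 with a median of 2682, and the 17 PAEP-detected CTCs without OBP2A had 16.7 to 4569 with a median of 330. OBP2B, a near-identical copy elsewhere on the chromosome, was read in 5 CTCs, all among these 9, so reads may be split between the 2 copies and their levels are uncertain.

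LCN1, the tear lipocalin gene between MRPS2 and OBP2A, was read in 4 PAEP-detected CTCs with 1 to 5 reads each, and all 4 also had OBP2A. LCN2, the siderophore-binding lipocalin of neutrophils, was read in 7 PAEP-detected and 3 PAEP-negative CTCs, all from mouse 5546. Of the 18 lipocalin genes listed, 11 had a row, 10 had reads in at least 1 CTC and none passed the filter, so no lipocalin other than PAEP could be tested.

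Other genes of the secretory and decidual endometrium were examined as the setting in which PAEP is best known. Counts of list members are read against all 6869 genes, of which 73.2% were above 0, 11.3% were higher and 1.57% lower in all 4 mice, and 6.38% were higher and 0.204% lower at an unadjusted p under 0.05. Of 26 endometrial genes listed, 12 were tested, 10 were above 0 and 9 were above the median of all genes. Their median was 1.57 against 0.64 over all genes, but 0.96 against 0.54 with the mean of log2 values and 0.19 against 0.14 with genes detected as a covariate. None passed in limma, and 3 had an unadjusted p under 0.05. These were STC1, IL15 at 3.28 and GPX3 at 2.22. IL15, the cytokine that supports NK cells, was detected in 13 of 26 and 3 of 11 CTCs, with class means of 11.1 and 4.21. GPX3, a secreted peroxidase, was detected in 25 of 26 and 8 of 11 CTCs, with class means of 196 and 102. BMP2 differed by 3.15 with 12 of 26 and 2 of 11 detected, and was higher in 3 of 4 mice. Its difference was 9.29 in mouse 5541, which holds 1 CTC of each class, and -3.19 in mouse 5545. Over all CTCs, its PAEP-detected mean was 31.1, and 7.36 without the highest CTC, against a PAEP-negative mean of 4.43. BMP2 was at 0.88 with genes detected as a covariate. IGFBP1, a classic decidual product, was at 1.06 and was higher in 2 of 4 mice.

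The regulators that act on PAEP elsewhere were examined next. The progesterone receptor gene PGR was detected in 3 of 26 PAEP-detected CTCs and 0 of 11 PAEP-negative CTCs, and ESR1 in 1 of 26 and 0 of 11. The PAEP-detected class holds 26 of the 37 CTCs. How many genes as sparse as these are read in that class alone was not counted. Of 22 steroid, cAMP and SP/KLF regulators, 13 were tested, 7 were above 0 and 5 above the median of all genes, with a list median of 0.38. The glucocorticoid receptor gene NR3C1 was detected in 26 of 26 and 9 of 11 CTCs and differed by 1.36 ± 0.98 (log2 of class means + 1, SE, n = 4; limma adjusted p = 0.767), higher in 4 of 4 mice. TSC22D3, a glucocorticoid-induced gene, differed by -1.57, lower in 3 of 4 mice, and SP3 by 1.47.

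Stress genes were followed because DDIT4 belongs to them, so the counts of its list include the gene that led to it. Of the 16 genes of the ATF4 response, the program that cells switch on when amino acids or protein folding fail, 13 were tested, 9 were above 0 and 7 above the median of all genes. The list median was 1.04, and 0.71 against 0.14 with genes detected as a covariate. None passed in limma, and 2 had an unadjusted p under 0.05, DDIT4 and the mitochondrial serine enzyme SHMT2 at 2.27. SESN2, another mTORC1 inhibitor, was detected in 16 of 26 and 1 of 11 CTCs with class means of 121 and 3.02. A CTC of mouse 5549 held 1755, and the mean of 121 was 55.9 without it. Within mice SESN2 differed by 2.63, higher in 3 of 4, with -2.29 in mouse 5545. DDIT3, the transcription factor CHOP, was detected in 23 of 26 and 5 of 11 CTCs and differed by 2.63, higher in 3 of 4 mice. Its difference was 8.09 in mouse 5542 and -1.40 in mouse 5545, and 0.49 with genes detected as a covariate. In mouse 5542, 1 PAEP-detected CTC held DDIT3 at 790, and the others were at 22.3 and 0. That same CTC held the 10735 of CXCL8, with HSPA5 at 9512, IER3 at 4326 and IL1B at 303. The differences of these genes in mouse 5542 therefore share 1 library and are not separate results. ATF4 itself was at 0.06, and TRIB3 at -0.83.

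Of 13 heat shock and chaperone genes, 12 were tested, 11 were above 0, where 73.2% of all genes were, and 5 had the same sign in all 4 mice, where 11.3% of all genes were higher and 1.57% lower. The list median was 1.18, and 0.71 with genes detected as a covariate. HSPA5, the chaperone BiP of the endoplasmic reticulum, was at 434 against 355 in mouse 5541. In mouse 5542, its mean was 3364 against 55.8, and the CTC with DDIT3 at 790 held 9512. Its class means were 498 and 348 in mouse 5545 and 959 and 120 in mouse 5546, so mice 5541 and 5545 differed little. The mean difference was 2.42 ± 0.80 (log2 of class means + 1, SE, n = 4; limma adjusted p = 0.707). HSPH1 differed by 3.10 and HSPE1 by 1.69, while HSP90AA1 was at -0.01.

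Inflammatory cytokines had a list median of 1.43, with 8 of 18 tested, 7 above 0 and 1, CXCL8, at an unadjusted p under 0.05. IL1B was detected in 11 of 26 and 1 of 11 CTCs, and LIF, which also acts in the decidua, in 12 of 26 and 3 of 11. IL6 was at -0.44. Interferon-stimulated genes had a median of 0.99, with 14 of 23 tested, 13 above 0 and 2 at an unadjusted p under 0.05, against 73.2% and 6.38% of all genes on the higher side. BST2, the tetherin that holds viruses at the membrane, was the steadiest of them, with 2.72, 3.97, 1.91 and 2.32 in mice 5541, 5542, 5545 and 5546 and a mean of 2.73 ± 0.86 (SE, n = 4). IFI44 was at 3.16 and ISG15 at 2.18, each higher in 3 of 4 mice, but IFI44 was at 10.64 in mouse 5541 and at 0.67 without that mouse.

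Genes that describe tumor cell state were mixed. Every CTC of both classes expressed VIM, the mesenchymal filament of this line, at a median of 8117 in PAEP-detected and 8754 in PAEP-negative CTCs, with a difference of 0.07 ± 0.35 (log2 of class means + 1, SE, n = 4). CD44 was also read in all 37 CTCs, at medians of 365 and 161, and differed by 1.66. Mesenchymal genes had a median of 1.23, with 12 of 21 tested and 10 above 0, and 0.65 with genes detected as a covariate. SNAI2, a repressor of epithelial genes, was at 2.76 and ACTA2 at 2.27.

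Epithelial genes had a median of 0.42, with 8 of 18 tested and 3 above the median of all genes. KRT19 differed by -3.28 ± 1.36 (SE, n = 4), with 0 against 2047 in mouse 5541 and a difference of 0.61 in mouse 5546. DSP was at 1.09 and JUP at -1.07. EPCAM was detected in 5 of 26 and 3 of 11 CTCs, ERBB2 in 14 of 26 and 3 of 11, and EGFR in 25 of 26 and 8 of 11. Genes of lung metastasis in the parental line had a median of 0.47 with 9 of 18 tested, led by ANGPTL4 at 3.54, EREG at 2.00 and ID1 at 1.75. ANGPTL4 was higher in 3 of 4 mice, with 9.69 in mouse 5541 and -0.08 in mouse 5542. With genes detected as a covariate, it was at 0.36. EREG, a ligand of EGFR, was detected in 26 of 26 and 10 of 11 CTCs and was higher in 4 of 4 mice.

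Synthesis and secretion genes lay above the median in the class-mean fit. Cholesterol and fatty acid genes had a median of 1.27, with 19 of 23 tested and 16 above 0. That median was 0.29 with genes detected as a covariate. DHCR7 was at 2.77, higher in 3 of 4 mice, and SCD at 2.59, higher in 2 of 4. Over all CTCs, both had a lower mean in the PAEP-detected class, 14.5 against 29.3 for DHCR7 and 40.7 against 51.7 for SCD. Glycosylation and secretion genes, which build and export proteins such as glycodelin, had a median of 0.89, with 21 of 25 tested, 19 above 0 and none at an unadjusted p under 0.05. The sialyltransferase gene ST3GAL4 was at 2.57, ST3GAL1 was higher in 3 of 4 mice, and MGAT1, which opens the branching of sugar chains, was at 1.78.

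The medians of the proliferation and early response lists were below that of all genes. G2/M genes had a median of 0.16, with 22 of 24 tested and 4 above the median of all genes, and S-phase genes 0.37 with 20 of 23 tested and 9 above it. CENPE was at 1.66, CENPF at -1.65, BUB1 at 1.49, GINS2 at 2.32, POLD3 at 2.23, E2F1 at 1.61 and MKI67 at -0.05. With genes detected as a covariate, the G2/M median was -0.50 and the S-phase median -0.30. Immediate early genes had a median of 0.20, with 18 of 23 tested and 7 above the median of all genes. YAP/TAZ targets had a median of 0.19, but 0.54 with the mean of log2 values, as over all genes, and 0.30 against 0.14 with genes detected as a covariate. F3, YAP1 and CRIM1 were at 1.75, 1.71 and 1.58. IER3 was at 2.00, ATF3 at 1.55 and DUSP1 at 1.44, with DUSP1 at a higher median in PAEP-negative CTCs, 902 against 283.

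The 13 mitochondrially encoded mRNAs had a median of -0.07, with 2 above 0, and MT-ND4L, MT-ND6 and MT-ND2 were at -0.39, -0.38 and 0.28. Abundant noncoding RNAs had a median of -0.37 with 7 of 9 tested, and NEAT1, MT-RNR1 and SNHG5 were at 1.55, -0.92 and -0.70. Glycolysis and hypoxia genes had a median of 0.28 with 19 of 24 tested, with HK1 at 3.81, SLC2A1 at 1.70 and PFKL at 1.66. HK1 was higher in 3 of 4 mice, with 8.55 in mouse 5541 and -0.80 in mouse 5545. GAPDH was at -0.08 and ACTB at 0.20. Metallothioneins and redox genes had a median of 0.28, and GCLM, MT1F and HMOX1 were at 2.89, -2.61 and 2.38. HLA class I and immune shield genes had a median of 0.69, near that of all genes, with MICB, TAPBP and CD47 at 2.64, 1.38 and 1.30.

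**Figure D5:**
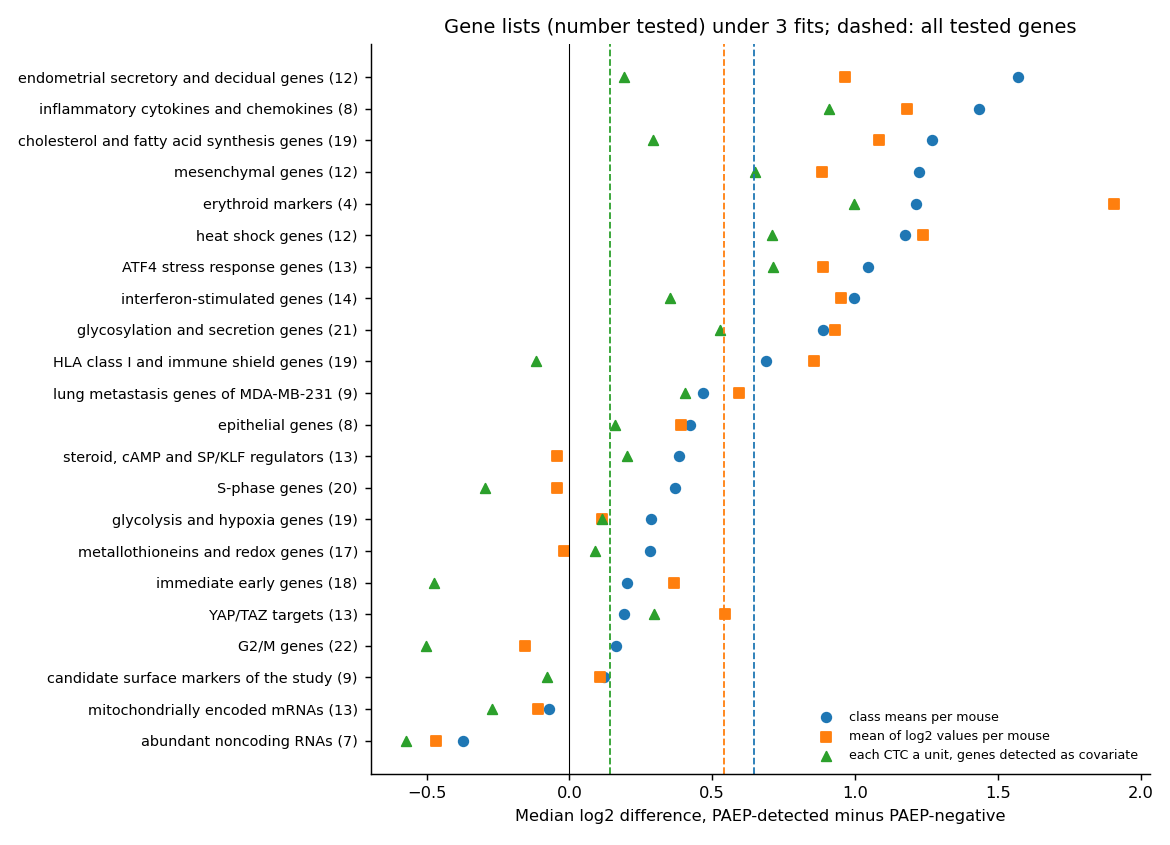
Median log2 difference, PAEP-detected minus PAEP-negative, of each gene list (number of tested members in parentheses) in the class-mean fit (circles), with the mean of log2 values (squares) and with each CTC a unit and genes detected as a covariate (triangles). Dashed lines are the medians of all tested genes, 0.64, 0.54 and 0.14, and the endometrial list moves from 1.57 to 0.19 across the fits.

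Of the candidate surface markers of the study, 9 were listed and tested, and the others were not used here. The study selected them on these same CTCs, so they are not independent of them. The 9 had a median of 0.12, with 1 above the median of all genes. TRIML2 was at 1.36, AHNAK2 at -1.08 and EGFR at -0.71, and none had an unadjusted p under 0.05.

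Markers of blood cells moved with the classes over all CTCs but not within every mouse. The summed value of 6 erythroid markers ranged from 8.48 to 15571 with a median of 1636 in PAEP-detected CTCs, from 0 to 3762 with a median of 29.2 in PAEP-negative CTCs, and was 0 in all 6 cultured cells. Within mice, the class means were 196 and 1.81 in mouse 5541, 2507 and 813 in mouse 5542, 135 and 480 in mouse 5545, and 2319 and 2897 in mouse 5546. These CTCs came from mouse blood and reads were aligned to the human genome, so reads of host RNA could be counted under the human globin and S100A9 genes, and this was not tested. HBB, the beta globin gene, was detected in 26 of 26 and 9 of 11 CTCs and differed by 1.31 ± 0.93 (log2 of class means + 1, SE, n = 4; limma adjusted p = 0.761), higher in 2 of 4 mice. HBD was at 1.12 and ALAS2 at 2.01.

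The 4 neutrophil markers with a row summed to a median of 49.7 in PAEP-detected and 0 in PAEP-negative CTCs, with highest values of 571 and 352. S100A9 made up most of this and was detected in 25 of 26 and 5 of 11 CTCs, at 2.05, higher in 2 of 4 mice. The 9 leukocyte markers summed to medians of 98.5 and 80.0, below the 319 of cultured cells, with LAPTM5 at 0.91 and TYROBP at 0.45. LAPTM5 alone had medians of 66.5 in PAEP-detected, 67.4 in PAEP-negative and 312 in cultured cells. Since cultured LM2 cells hold it, the sum is no measure of leukocyte RNA alone. PTPRC, the gene of CD45, was detected in 8 of 26 and 3 of 11 CTCs and in 0 of 6 cultured cells. The 6 platelet markers summed to a median of 0 in both classes, with PPBP and PF4 at 0 in all PAEP-negative CTCs. CD3E and S100A8 have no row in the table. The part of blood cell RNA in the differences of DDIT4, CXCL8 and the other genes above was not tested.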

How the data were processed

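Values of 37 CTCs and 6 cultured cells were analyzed. The authors aligned reads with STAR 2.7.10a to GRCh38 with GENCODE 38, kept uniquely mapped reads without regard to strand, left out 4 CTCs by mapping rate or mitochondrial share, and deposited a signal, the reads per gene divided by the DESeq2 size factor of each cell. Dividing by the smallest nonzero value of each cell gave whole reads for 100% of values (tolerance 0.001), which were used for depth, shares, thinning and count tests. Reads on genes ranged from 469614 to 2041333 per CTC, and a gene with 0 reads could lie under the value of 3 reads.

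Classes, members and gene lists were chosen with earlier results of these data known. The mouse, taken from the library name, was the replicate, and both classes of a mouse came from the same animal, which pairs them. limma 3.58.1 with mouse as a block was used on log2(class mean + 1), for genes with a mean of at least 8 and detection in at least 30% of CTCs, with Benjamini-Hochberg adjustment. Named genes were PAEP, the 10 with the largest mean difference on each side among those of the same sign in all 4 mice, up to 3 per list, any called, the 5 largest detection differences on each side, check genes, and genes within 500 kb of PAEP. Members needed to account for a list were added. A few genes that the rule names are not reported here. Library measures were compared with exact sign-flip tests over mice. Alternatives were other pseudocounts, filters, units, weights and scalings, edgeR 4.0.16, DESeq2 1.42.0, thinning to 469614 reads, stricter PAEP minimums and leaving out each mouse. Gene names and coordinates came from GENCODE 44 on GRCh38 (25684 of 25739 identifiers matched). The steps were tested on simulated data. Python 3.11.15 and R 4.3.3 were used.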

Additional observations from a re-analysis of the deposited data

Results flagged for a closer look

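In mouse 5545, 1 PAEP-negative CTC had 2227 genes, far below the next CTC at 6622 and the highest at 9602. Among the 4 PAEP-detected CTCs of the same mouse, 1 had a mitochondrial share of 8.21%, above the next at 5.52%. Among the 8 CTCs of mouse 5546 with the letter s, 1 had a PAEP value of 11010, above the next at 4464. These 3 libraries stood apart among 32 combinations of group and measure examined, and chance sets apart about 1 in 20.

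The differences between the classes in mice 5545 and 5546, the mice with at least 3 CTCs in each class, stood apart when their CTCs were exchanged. CTCs are not replicates of a mouse, so whether the mice differ was not tested. For reads on genes, the difference between classes was -203445 reads in mouse 5545 and 516126 in mouse 5546, and the effects differed by 719571 reads. For the mitochondrial share, the difference between classes was -0.944 percentage points in mouse 5545 and -8.78 in mouse 5546, and the effects differed by -7.83 percentage points. For genes detected, the effects of 400 and 2896 genes did not stand apart in this way. The PAEP-negative class of mouse 5546 holds 3 CTCs.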

How the results depend on the processing

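No gene was called in limma under 15 of the alternatives that keep all mice. They include the fit with no replicate block, in which the 2 classes of a mouse are not paired. The stricter PAEP minimums among the 15 left the same 26 CTCs. They repeat the main fit, here and among the 2205 values below, and are no separate check. DESeq2 on summed reads called 35 genes higher and 2 lower, and edgeR on the same sums called 0. Leaving out 1 mouse gave 0 to 1 calls on the higher side, DDIT4 without mouse 5541, and 0 on the lower side. The count of genes at least 1 higher in each mouse was 142, and 18 with a minimum of 2 on the log2 scale. It ranged from 242 to 684 when 1 mouse was left out, where fewer mice had to satisfy the rule. On the lower side, 7 genes became 0 with a minimum of 2, 13 with genes detected in at least 5 of 43 cells, 13 with a mean of at least 1, 12 with the letters of mouse 5546 as separate blocks, 13 without CTCs under 5000 genes and 25 to 61 when 1 mouse was left out. Filters that keep more genes widen the set tested, and for the other settings the cause was not tested. The difference in the mitochondrial share, -2.85 percentage points, had a permutation p of 0.0133 when CTCs were exchanged within their mouse and, at -2.97, of 0.0402 within mouse and letter. The same exchanges gave permutation p-values of 0.0734 and 0.331 for genes detected, which fell from 1123 to 595 within letter, and 0.303 and 0.495 for reads on genes. They take the CTC as the unit, and CTCs of 1 mouse are not replicates of a class, so the sign-flip p of 0.375 over mice stands for the mitochondrial share. Leaving out 1 mouse moved it from -4.16 to -0.877, the difference in reads on genes from -39589 to 200268 and that in genes detected from 532 to 1631. Over the 105 named genes tested, 70 of 2205 values changed sign, in 27 genes, none of them called in either fit. Depth limits the low genes: with 3 reads worth 0.972 to 6.36 in a CTC, the lipocalin neighbors of PAEP could not be compared.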
